A study of Bos grunniens with 3 samples.

Results

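The BMP and TGF-beta pathway genes were the 47 genes, of the 26924 in the count matrices, whose symbol names a BMP, TGF-beta or inhibin/activin subunit, one of their receptors, a SMAD, an ID protein of the numbers 1 to 4, a latent TGF-beta binding protein (LTBP), noggin or follistatin. The rule that picks them uses the symbol alone and no expression value, but it was set with earlier results of these data known. *GREM1*, *BAMBI*, *LTBP3* and *SMAD9* were also sought and matched no row. *BMP2K*, *TGFB1I1* and *TGFBRAP1* matched by their letters and encode a kinase, a focal adhesion protein and a receptor-associated protein, so they are counted with the members and kept apart by role. The other roles are 8 BMP ligands, 7 TGF-beta or activin ligands, 6 extracellular control proteins, 12 receptors, 7 SMADs and 4 ID genes.

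The study made 10x Genomics single-cell libraries from hair follicles of the scapular skin of Tianzhu white yak, healthy and 2 years of age, 1 library each in anagen (the growing phase of the hair cycle), catagen (regression) and telogen (rest). The labels give no genotype or treatment, and all 3 libraries share the tissue and the digestion, with dispase before the follicles were pulled out and trypsin after. The protocol text deposited with the catagen library names anagen, so its stage rests on its title and stage label, and the telogen library is not part of the paper. The methods name 3 yaks without saying which library each gave, so a library is 1 measurement of a stage, and no p-value or spread between animals can be given.

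Ligands of this family sit outside the cell, bind pairs of type I and type II receptors and act through SMAD proteins: BMPs mainly through SMAD1 and SMAD5, TGF-beta and activins through SMAD2 and SMAD3, both with SMAD4 as partner. In hair follicles of other mammals, BMP signals are known to keep bulge stem cells at rest and to drive differentiation of the hair shaft and inner root sheath (IRS), while antagonists such as noggin and follistatin lower the amount of free ligand. The ID genes are classical targets of BMP signalling and encode inhibitors of bHLH transcription factors.

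After cells with fewer than 200 genes were left out, 11987 anagen, 12062 catagen and 14502 telogen cells remained, with 82816430, 51537357 and 103430933 unique molecular identifiers (UMIs) and medians of 5256, 3350 and 5583.5 UMIs per cell. Between 40 and 49 cell barcodes were shared by any pair of libraries. Cells were grouped into 25 clusters over all libraries without use of the members, and 15 clusters took a name followed by -like from marker genes, in 10 compartments that hold 67.7% of anagen, 58.5% of catagen and 51.6% of telogen cells. The label hair follicle was checked against such markers: IRS-like cells made up 4.80% of anagen, 2.02% of catagen and 0.993% of telogen cells, and hair cortex-like cells 3.20%, 1.75% and 1.07%. Of the marker lists, the mesenchymal and endothelial ones were raised only in cluster 21, a mixed and unnamed group of 101, 53 and 50 cells, so dermal cells are few. Cluster 1 had a median of 760.5 UMIs per cell in catagen and 1019 in telogen, against 3957 in anagen, and held 21.5% of telogen cells. Cell Ranger differed along with stage: the anagen matrix was written by version 4.0.0, the catagen matrix by 3.1.0 and the telogen matrix by 6.0.2, so version and stage cannot be told apart. The inner root sheath keratin *KRT71* stood in compartments other than the IRS at 0.548% to 4.0% of its IRS level in anagen, 0.145% to 1.76% in catagen and 0.0786% to 0.816% in telogen. This share, a measure of free or mixed RNA of that keratin, was highest in anagen. There the IRS level was lowest (8448 CPM, against 14436 and 13064) and IRS-like cells were most frequent. The IRS keratin *KRT25* also had its highest shares in anagen, up to 3.38%, against 2.00% and 0.925%. For the cortex keratin *KRT85*, the share outside cortex-like cells was 0.645% to 4.80% in anagen, 0.0937% to 2.47% in catagen and 0.0756% to 1.31% in telogen. Its cortex-like level was highest in anagen too (15820.1 CPM, against 14885 and 11651). The shares of these keratins alone do not rank free RNA of other genes between libraries.

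A level is given as CPM, the UMIs of a gene per 1000000 UMIs of the library or compartment. Of the 47 members, 7 had 0 UMIs in every library: *NOG*, *BMP5*, *BMP10*, *BMP15*, *INHBC*, *INHBE* and *ACVR1C*. A count of 0 allows a level of up to 0.0362 CPM in anagen, 0.0582 CPM in catagen and 0.0290 CPM in telogen, at the limit of 3 UMIs. Noggin, the BMP antagonist, was thus not detectable at this depth in the whole library of any stage. These limits cover only UMIs assigned to the row of a gene, and transcripts not assigned to that row are not bounded by them. The limits apply to whole libraries, in which dermal cells are few, so the absence of noggin from dermal cells is not shown. Another 8 members had UMIs but stayed under 5 CPM throughout: *ACVRL1* with 2 to 6 UMIs per library, *INHBB* with 47 to 56, *BMP3* with 17 to 131, *TGFB3* with 61 to 122, *BMP7* with 114 to 139, *BMP6* with 128 to 253, *SMAD3* with 140 to 198 and *SMAD7* with 109 to 267. The remaining 32 reached 5 CPM in at least 1 library, and 17 of them reached 20 CPM. The 5 CPM floor is met by whichever library is highest, so these 32 are not all members.

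**Figure D1:**
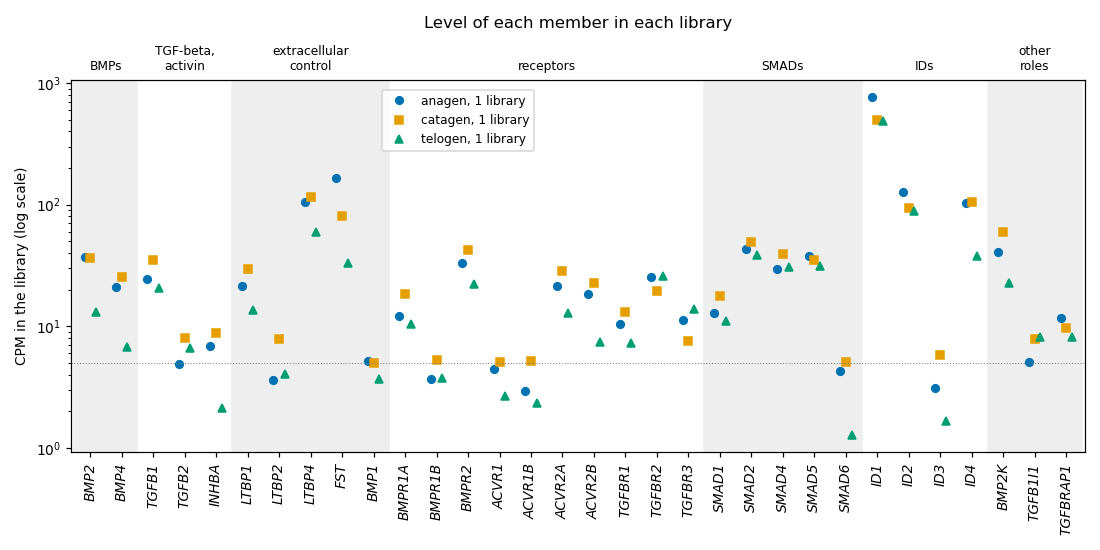
Level of the 32 members with at least 5 CPM in a library, in CPM on a log scale, with 1 point per library and genes grouped by role. The dotted line marks 5 CPM. The 2 BMPs, *INHBA*, *FST* and *ID4* have their telogen points well below the other libraries, whereas the SMAD points other than *SMAD6* lie close together.

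Within each pair of libraries, most tested members differed by less than 2-fold, and telogen stood lowest for most of them. A member is called here where its level differed at least 2-fold, with at least 5 CPM in either library and an exact 95% interval that excludes equality. The interval covers counting error only. For catagen over anagen, 1 of 32 members was called higher (*LTBP2*) and 1 lower (*FST*), against 5.53% and 3.47% of all 7721 genes tested. For telogen over anagen, 0 of 26 were higher and 6 were lower (*FST*, *INHBA*, *BMP4*, *BMP2*, *ID4* and *ACVR2B*), which is 23.1% of those tested against 8.51% of 7312 genes, with 3.0% of genes higher. For telogen over catagen, 0 of 31 were higher and 12 were lower, which is 38.7% against 13.6% of 7658 genes, with 3.97% of genes higher. Besides *FST*, *INHBA*, *BMP4*, *BMP2*, *ID4* and *ACVR2B*, the 12 include *LTBP1*, *ACVR1B*, *ACVR2A*, *SMAD6*, *ID3* and *BMP2K*. Of these, *INHBA*, *ACVR1B*, *SMAD6* and *ID3* reached 5 CPM in catagen and not in telogen, so they could only be called lower. The same holds for *INHBA* in telogen over anagen. *LTBP2* reached 5 CPM in catagen and not in anagen, so it could only be called higher. All genes passed through the same filter. The comparisons share libraries and are not independent of each other.

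These counts depend on how libraries are scaled. Scaling by the median of gene ratios in place of total UMIs shifts log2 ratios by 0.25 for catagen over anagen, by -0.25 for telogen over anagen and by -0.50 for telogen over catagen, amounts that are taken off each ratio. Under it, telogen over anagen keeps the same 6 members as lower, of 396 genes higher and 369 lower. Telogen over catagen retains 5 lower members (*BMP4*, *INHBA*, *ACVR2B*, *SMAD6* and *ID3*) and gains *TGFBR3* as higher, while the split of all genes turns from 304 higher and 1045 lower to 1037 higher and 312 lower. Relative to the median gene, whose log2 ratio was 0.10, -0.18 and -0.30 in the 3 comparisons, 22 of 32 members were above it in catagen over anagen, 20 of 26 were below it in telogen over anagen and 23 of 31 were below it in telogen over catagen. The median log2 ratio of the members was 0.32, -0.53 and -0.91. Under median-of-ratios scaling the direction of 5 members turned in catagen over anagen (*ACVR1*, *SMAD6*, *LTBP4*, *SMAD2* and *ID4*), of 4 in telogen over anagen (*SMAD1*, *TGFB1*, *SMAD2* and *BMPR1A*) and of 8 in telogen over catagen (*BMPR1B*, *SMAD5*, *TGFBRAP1*, *ID2*, *ID1*, *TGFB2*, *SMAD2* and *SMAD4*), none of them called.

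**Figure D2:**
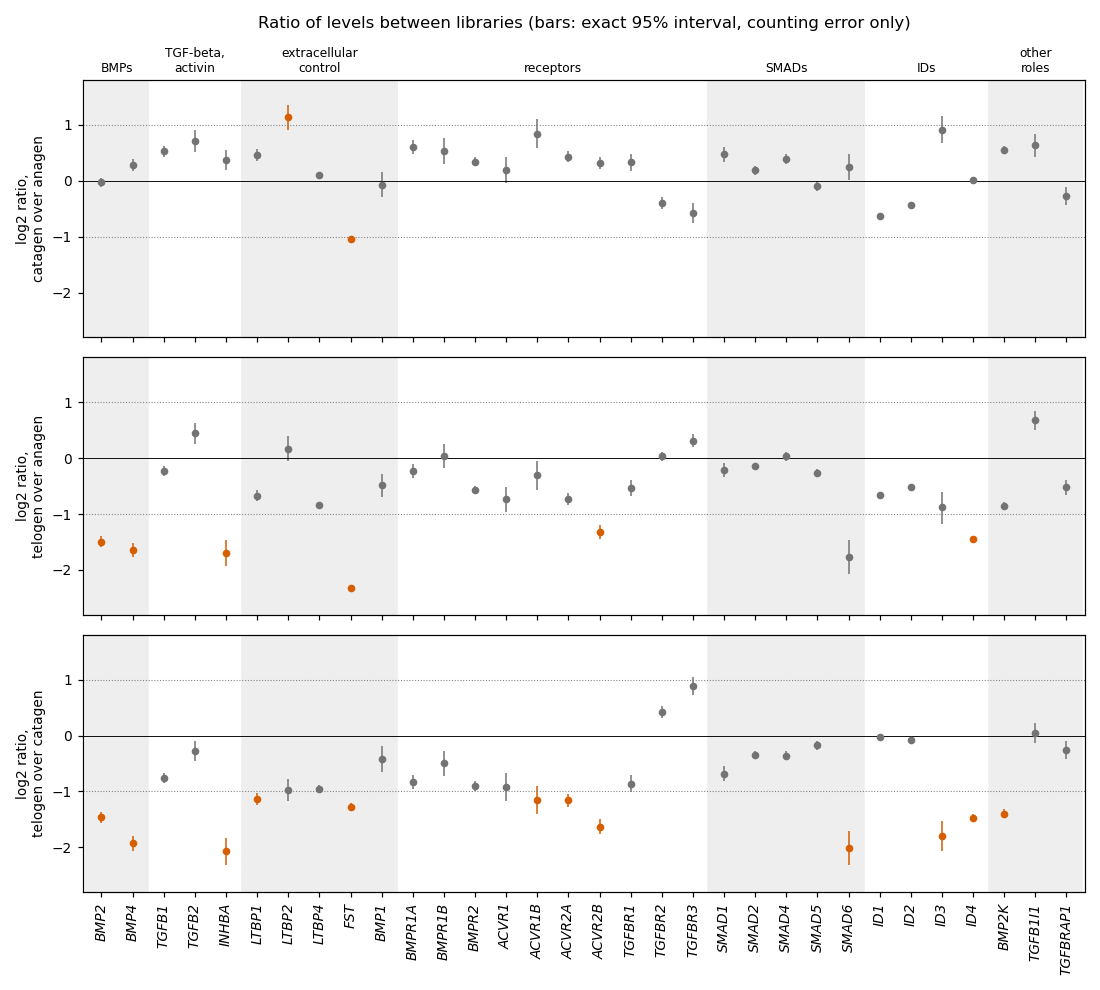
Log2 ratio of CPM between libraries for the 32 members, with exact 95% intervals for counting error, by role, in 3 panels from catagen over anagen at the top to telogen over catagen at the bottom. Dotted lines mark 2-fold and orange points are called; *FST* is below the lower line in every panel, and 6 points in the middle and 12 in the bottom panel are orange and below it. *SMAD6* in the middle panel is grey because it stayed under 5 CPM in both libraries.

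The 2 BMP ligands above 5 CPM were lowest in telogen. *BMP2* (ENSBGRG00000007486), a ligand that signals to follicle stem cells, had 37.3 CPM in anagen, 36.5 in catagen and 13.2 in telogen, from 3092, 1883 and 1370 UMIs. Anagen and catagen were alike within counting error (log2 ratio -0.03, interval -0.11 to 0.05), and telogen was 2.82-fold below anagen. *BMP4* (ENSBGRG00000022589), a ligand of the hair matrix and dermal papilla, had 20.9 CPM in anagen, 25.4 in catagen and 6.70 in telogen. Telogen was thus 3.11-fold below anagen and 3.79-fold below catagen. For *BMP4* the log2 ratio of telogen over catagen was -1.92 in whole libraries and -1.39 with cluster shares held at those of catagen. The mean of the log2 ratios of the named compartments was -0.66, no longer 2-fold. That mean gives compartments with few UMIs, such as immune-like cells, the same weight as large ones.

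The 2 BMPs occupied different cells. A member is called raised in a group of cells where its level there was 2-fold or more that of all remaining cells, at 20 CPM or more and with an interval above 1, in each library. Only the 32 members with at least 5 CPM in a whole library were considered for this call. *BMP4* was raised in cortex-like cells (102 CPM in anagen, 206 in catagen, 72.8 in telogen) and in IRS-like cells (57.9, 140.1 and 46.2). It was also raised in cluster 11, whose leading genes are *DCN*, *FABP7* and *DPP4* (50.7, 90.0 and 28.0), and stood between 0.529 and 3.03 CPM in suprabasal-like cells of all libraries. Cortex and IRS are the differentiating inner layers of the follicle. In both, catagen was the highest library, 2-fold or more above anagen (log2 1.01, interval 0.78 to 1.25, in cortex-like cells and 1.28, 1.04 to 1.51, in IRS-like cells). Telogen was below anagen by a smaller amount there than in whole libraries, with log2 ratios of -0.49 (-0.77 to -0.22) and -0.32 (-0.65 to -0.01). With the clusters held at anagen's shares of UMIs, the ratio of telogen over anagen was -0.90 in place of -1.64, and the shares of IRS-like and cortex-like cells were lower in telogen.

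*BMP2* was raised in cluster 16 alone, an unnamed group led by *FGF18*, *PMP22* and *IGFBP7* with the companion layer keratin *KRT75* among its leading genes, at 155 CPM in anagen, 276 in catagen and 155 in telogen. This cluster held 48 anagen, 386 catagen and 154 telogen cells. Among named compartments other than the few immune-like cells, basal epidermal-like cells were highest in all libraries (80.5, 62.1 and 18.1 CPM). Suprabasal-like cells had 51.9, 43.7 and 11.8 CPM, and IRS-like cells were low with 12.8, 8.70 and 2.41. The lower telogen level was seen in most cells: in 14 of 17 clusters with at least 20 CPM telogen was below anagen, by 2-fold or more with an interval that excludes equality in 11. Counts of clusters at 2-fold or more carry this condition on the interval throughout. A cluster is counted where either library of the pair reaches 20 CPM. One that reaches it in a single library of the pair could only come out lower in the other. Clusters of a library share its scaling and are not replicates of a stage. The exceptions were cluster 16 (log2 0.01, interval -0.56 to 0.60), cluster 21 (0.27, -0.75 to 1.25) and cluster 4, the larger of the 2 bulge-like clusters. Cluster 4 held 10.8 CPM in anagen, 24.9 in catagen and 20.7 in telogen.

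Of the TGF-beta ligands, *TGFB1* (ENSBGRG00000019398) had 24.3 CPM in anagen, 35.0 in catagen and 20.7 in telogen, and no pair of libraries differed 2-fold. It was raised in immune-like cells, at 91.5, 118 and 122 CPM, where 18, 17 and 49 cells and 10, 6 and 17 UMIs were found. S phase-like cells came next among named compartments in each library (44.9, 83.5 and 35.3 CPM). *TGFB2*, the isoform tied to catagen entry in other species, had 4.91, 8.05 and 6.65 CPM, with catagen above anagen by 1.64-fold. Bulge-like cells were its highest named compartment in each library, with 22.7, 20.9 and 15.8 CPM. Within them it was raised in cluster 12, led by *PTHLH* and *SEMA3E* (44.2, 46.5 and 23.8), and not in cluster 4 (11.8, 7.54 and 11.5).

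*INHBA* (ENSBGRG00000009678) encodes the subunit that forms activin A. It had 6.87 CPM in anagen, 8.87 in catagen and 2.12 in telogen, from 569, 457 and 219 UMIs, and telogen was 3.24-fold below anagen. A few cells carried much of it: 1 catagen cell of cluster 9, a mitotic-like cluster, held 103 of the 457 UMIs, or 22.5%. With the cell of the most *INHBA* UMIs left out of each library, the levels were 6.51, 6.87 and 1.94 CPM and the log2 ratio of telogen over catagen -1.82. In cortex-like cells it stood at 28.5 CPM in anagen, 29.2 in catagen and 0.449 in telogen. The catagen value there rests on 9 cells, of which 1 held 73.7% of the UMIs, and the telogen value on 1 UMI in 155 cells.

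*INHBA* was raised in all libraries in 2 small unnamed clusters: cluster 22, led by *MMP7* and *MGP* (217, 155 and 71.4 CPM in 47, 65 and 78 cells), and cluster 21 (26.7, 352 and 128 CPM). The catagen and telogen levels of *INHBA* in cluster 21 rest on 40 and 36 UMIs in 5 cells each, of which 1 cell held 40.0% and 44.4%, and 1 anagen cell held 32.6% of the cluster 22 UMIs. Cluster 22 gave 16.2%, 12.9% and 19.2% of all *INHBA* UMIs. IRS-like cells, which lie next to the cortex, held under 1 CPM in every library.

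Among the proteins that control ligands outside the cell, follistatin differed most. *FST* (ENSBGRG00000020668), which binds activin and, more weakly, BMPs, had 166 CPM in anagen, 80.2 in catagen and 33.1 in telogen, from 13779, 4134 and 3422 UMIs. Each stage differed from the other two by at least 2-fold, and telogen was 5.03-fold below anagen (log2 -2.33, interval -2.38 to -2.28). The differences from catagen depended on how the ratio was taken. For *FST*, the log2 ratio of telogen over catagen was -1.28 in whole libraries and -1.35 with cluster shares held at those of catagen. It was -0.90 with at least 1000 genes per cell and -0.78 with median-of-ratios scaling. The mean of the log2 ratios of the named compartments was -0.20. That mean includes the few immune-like cells, where catagen had 0 *FST* UMIs. For catagen over anagen, the log2 ratio of *FST* was -0.89 with the mean of each cell's CPM, and no longer 2-fold.

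The cells that held *FST* also differed between libraries. It was raised in cluster 0, an unnamed group with *EMP3* and *ANGPTL2* among its leading genes in which 5 basal epidermal markers were also raised, with 665 CPM in anagen, 225 in catagen and 58.6 in telogen. *FST* was itself among the leading genes of this cluster, although no member was used to form clusters. Bulge-like cells had 227, 231 and 96.8 CPM, with more in cluster 12 (287, 310.0 and 171) than in cluster 4 (196, 189 and 56.9), and cluster 4 held most bulge-like cells in each library. Upper follicle-like cells had 317, 85.3 and 44.5 CPM. Of the *FST* UMIs, 43.8% came from cluster 0 in anagen, 44.5% in catagen and 27.4% in telogen. Bulge-like cells were alike in anagen and catagen within counting error (log2 0.03, interval -0.11 to 0.16), while cluster 0 was well below anagen in catagen (-1.56, -1.64 to -1.49) and further below in telogen (-3.50, -3.61 to -3.41).

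Across the 23 clusters with at least 20 CPM, *FST* was lower in telogen than in anagen in 23, by 2-fold or more in 18, and lower in catagen than in anagen in 20, by 2-fold or more in 16. The clusters above anagen in catagen were cluster 1, the shallow one (log2 1.44, 0.84 to 2.04), cluster 12 (0.11, -0.09 to 0.31) and cluster 16 (0.32, -0.45 to 1.17). With cluster shares held at those of anagen, the log2 ratio was -1.52 for catagen over anagen and -2.68 for telogen over anagen. Cells with little *FST* took part in this: basal epidermal-like cells had 54.5, 4.50 and 9.50 CPM, and IRS-like cells 21.9, 4.58 and 3.22. The shares of *KRT71* outside the IRS and of *KRT85* outside the cortex also were highest in anagen. The part of free or mixed RNA in the ratios of these low compartments was not tested. The ratios in clusters 0 and 12, which hold high levels, rest on 280 UMIs or more in each library.

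**Figure D3:**
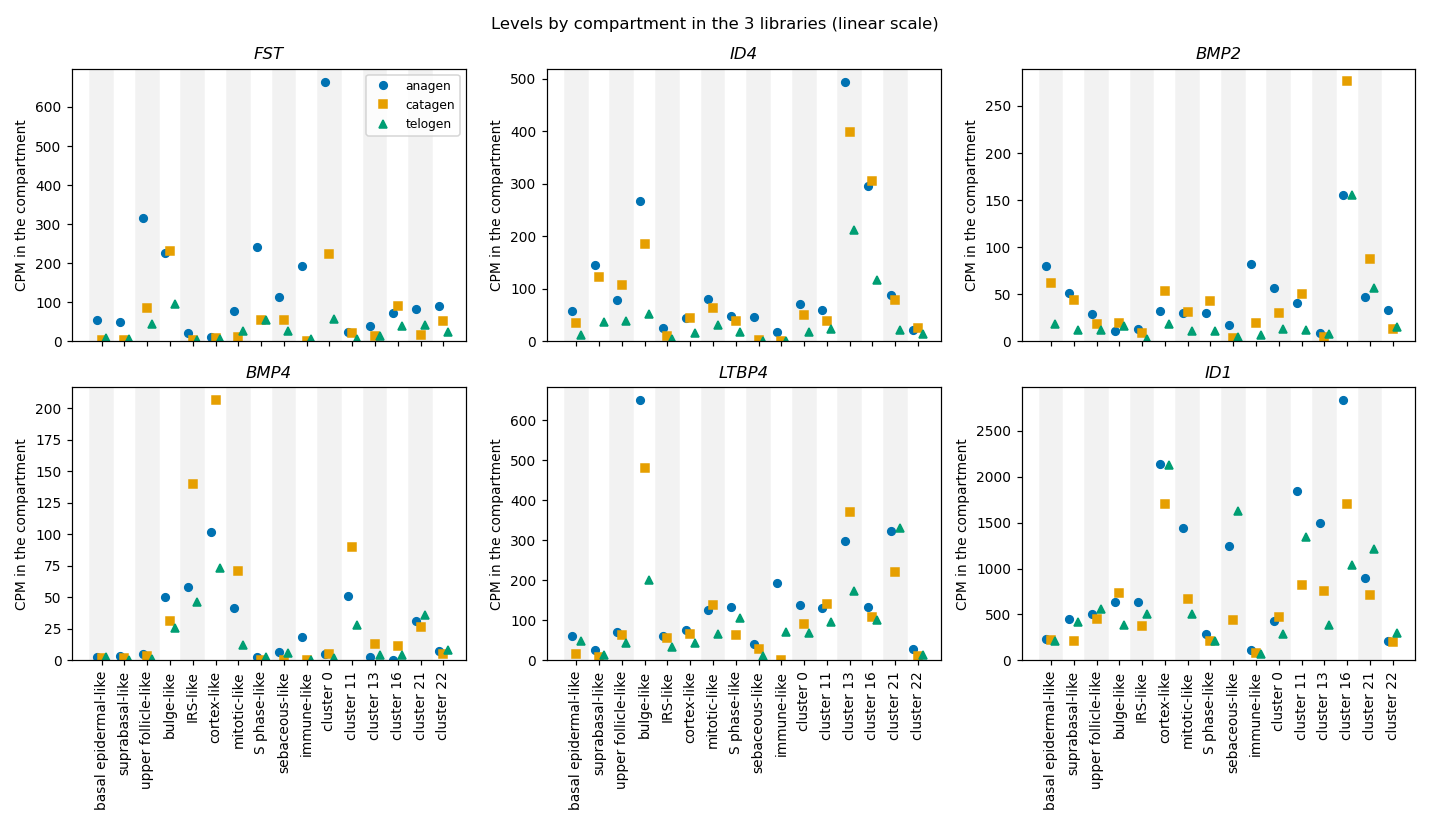
CPM of *FST*, *ID4*, *BMP2*, *BMP4*, *LTBP4* and *ID1* on linear axes in the 10 named compartments and the 6 unnamed clusters in which a member was raised, with 1 point per library. *FST* is highest in cluster 0 in anagen (665 CPM), *BMP4* in cortex-like cells in catagen (206), *BMP2* in cluster 16 in catagen (276), and *ID4* in cluster 13 (495 in anagen).

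The latent TGF-beta binding proteins *LTBP1* and *LTBP4*, which anchor the inactive ligand in the matrix, were raised in bulge-like cells. *LTBP4* (ENSBGRG00000016717) had 106 CPM in anagen, 115 in catagen and 59.7 in telogen, a difference that stayed under 2-fold for every pair. In bulge-like cells it had 649, 480.4 and 200.3 CPM, with the most in cluster 4 (882, 628 and 251). Cluster 13, with *CLDN10* and the stem cell marker *LGR5* among its leading genes, was also raised (299, 370.3 and 172). Suprabasal-like cells were low, with 26.2, 9.10 and 12.3 CPM. The stage difference in bulge-like cells was larger than in the whole library, with telogen 3.24-fold below anagen (log2 -1.70, interval -1.81 to -1.58) and 3.52-fold below it in cluster 4. Basal epidermal-like cells had 60.3, 16.9 and 47.9 CPM, so their lowest library was catagen.

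*LTBP1* (ENSBGRG00000008349) had 21.4, 29.6 and 13.5 CPM in anagen, catagen and telogen, with telogen 2.19-fold below catagen (log2 -1.13). This call was lost with cluster shares held at those of catagen (-0.62), with at least 1000 genes per cell (-0.78) and with cells of at least 2500 UMIs (-0.87). The mean of the log2 ratios of the named compartments was -0.29. Bulge-like cells were raised with 154, 173 and 94.0 CPM, and cluster 21 with 131, 114 and 157. In basal epidermal-like cells, catagen was again lowest (47.6, 5.34 and 16.5). *LTBP2* had 3.61, 7.92 and 4.05 CPM and was 2.19-fold higher in catagen than in anagen (log2 1.13, interval 0.91 to 1.35). Its bulge-like levels were 17.1, 24.7 and 13.7 CPM, and bulge-like cells made up 5.91% of anagen, 16.8% of catagen and 6.44% of telogen cells. With cluster shares held at those of anagen, the *LTBP2* log2 ratio was 0.68 and no longer 2-fold. *BMP1*, which despite its name encodes a metalloprotease that processes matrix proteins, had 3.70 to 5.18 CPM.

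Of the 12 receptors, 3 were called between stages, all lower in telogen. *BMPR2* (ENSBGRG00000017354), the BMP type II receptor, had 33.2, 42.1 and 22.4 CPM in anagen, catagen and telogen, with no 2-fold difference, and was raised in cluster 21 (82.1, 88.0 and 49.8). *ACVR2A*, an activin type II receptor, had 21.3, 28.7 and 12.8 CPM, with telogen 2.24-fold below catagen, and was raised in IRS-like cells (40.8, 59.0 and 33.8). *ACVR2B*, its paralog, had 18.4, 22.8 and 7.37 CPM and was called lower in telogen against both other libraries, by 2.49-fold and 3.09-fold. In all 12 clusters with at least 20 CPM in either library the telogen level of *ACVR2B* was below anagen, by 2-fold or more in 8. Most of the 12 reached 20 CPM in anagen alone, so they could only come out lower. In telogen cluster 19 had 26.4 CPM and cluster 11 had 19.4. Cortex-like cells had 39.8, 50.8 and 18.9 CPM of it, mitotic-like cells 34.3, 45.4 and 9.15, and basal epidermal-like cells 4.93, 4.22 and 3.59. By number of cells, the mitotic-like cells came about equally from clusters 7 and 9 in anagen and mostly from cluster 7 in catagen and telogen. By UMIs, on which the levels rest, cluster 7 was the larger in anagen as well. Cluster 7 had 37.7, 45.8 and 9.54 CPM of *ACVR2B*.

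Of the TGF-beta receptors, *TGFBR2* and *TGFBR3* had a pattern of their own, which *TGFBR1* did not share. *TGFBR2* (ENSBGRG00000024593), the type II receptor, had 25.4 CPM in anagen, 19.3 in catagen and 25.9 in telogen. *TGFBR3*, the co-receptor betaglycan, had 11.2, 7.51 and 13.9. Of the 31 members tested in telogen over catagen, these 2 were the only ones with telogen above catagen by more than 0.1 on the log2 scale with total-count scaling, at 0.42 (0.32 to 0.53) and 0.89 (0.73 to 1.05). Below the 5 CPM floor, the ligand *BMP3* also stood above catagen, with 0.330 CPM in catagen and 1.27 in telogen (log2 1.94, interval 1.21 to 2.76). Under median-of-ratios scaling 11 of 31 members lay above catagen. Both were raised in basal epidermal-like cells: *TGFBR2* with 72.7, 69.4 and 70.5 CPM and *TGFBR3* with 51.8, 32.3 and 44.1. The *TGFBR2* level of basal epidermal-like cells was thus nearly the same in the 3 libraries. This did not hold in unnamed cluster 0, where basal epidermal markers were also raised. There the catagen level of *TGFBR2* was more than 2-fold below anagen. Cluster 0 held 21.5%, 15.1% and 29.9% of all *TGFBR2* UMIs in anagen, catagen and telogen. Its *TGFBR3* levels were 19.1, 11.8 and 38.0 CPM. In the differentiating layers *TGFBR2* was low, at 6.19, 0.458 and 2.41 CPM in IRS-like and 3.95, 0.769 and 4.49 CPM in cortex-like cells. Cluster 21 was raised for both, *TGFBR2* at 234, 405 and 228 CPM and *TGFBR3* at 179, 273 and 92.5.

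Of the type I receptors, *TGFBR1* had 10.5, 13.2 and 7.25 CPM in anagen, catagen and telogen, and cortex-like cells held 19.5, 31.5 and 17.5. *BMPR1A* had 12.2, 18.5 and 10.4 CPM, and *BMPR1B* had 3.66, 5.30 and 3.76. *ACVR1* and *ACVR1B*, which serve BMPs and activins, stayed between 2.35 and 5.22 CPM, and *ACVR1B* was called 2.22-fold lower in telogen than in catagen. No type I receptor was raised in a named compartment or a cluster.

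The SMADs that carry the signal and had at least 5 CPM in a library differed little between stages. *SMAD2* (ENSBGRG00000022238), of the TGF-beta branch, had 43.1 CPM in anagen, 49.1 in catagen and 38.7 in telogen. *SMAD4*, the common partner, had 29.8, 39.1 and 30.5, and *SMAD5*, of the BMP branch, 37.6, 35.2 and 31.2. None of these differed by more than 1.31-fold between any pair of libraries. *SMAD1* had 12.8, 17.7 and 11 CPM. *SMAD3*, below the 5 CPM floor, differed more, with 1.92, 3.84 and 1.35 CPM from 159, 198 and 140 UMIs. Catagen was about 2-fold above anagen (interval 0.69 to 1.31 on the log2 scale), and the log2 ratio of telogen over catagen was -1.51 (-1.83 to -1.19). *SMAD5* was raised in cluster 11 (77.9, 68.7 and 70.4). Within named compartments *SMAD2* was highest in cortex-like cells in all libraries (79.8, 91.6 and 57.0), a level short of 2-fold over other cells in at least 1 library. The inhibitory *SMAD6*, itself a known target of BMP signalling, had 4.31, 5.10 and 1.27 CPM and was called 4.03-fold lower in telogen than in catagen. In catagen and telogen its highest named levels were in cortex-like cells (14.6 and 6.74) and IRS-like cells (13.3 and 6.03), which held 7.62 and 8.71 in anagen, where mitotic-like cells had 9.47.

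The ID genes did not move together between stages. *ID1* (ENSBGRG00000016147) had 768 CPM in anagen, 493 in catagen and 488 in telogen, and *ID2* (ENSBGRG00000015396) had 126, 93.3 and 88.2. For both, anagen was highest and the other libraries lay close to each other, with no 2-fold difference. *ID4* (ENSBGRG00000007672) had 103, 105 and 37.9 CPM, so that only telogen stood apart, 2.73-fold below anagen and 2.77-fold below catagen. *ID3* had 3.08, 5.80 and 1.67 CPM and was called 3.47-fold lower in telogen than in catagen.

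*ID1* and *ID2* were raised in cortex-like cells. *ID1* had 2142 CPM there in anagen, 1700.4 in catagen and 2130.2 in telogen, so anagen and telogen were alike within counting error (log2 -0.01, interval -0.06 to 0.04). *ID2* had 269, 342 and 315. Cluster 16, where *BMP2* was raised, was raised for *ID1* (2835, 1703 and 1042), *ID2* (792, 267 and 181) and *ID4* (296, 305 and 117). Basal epidermal-like cells held little *ID1* for a named compartment, with 231, 225 and 214 CPM, steady across the libraries. In mitotic-like cells *ID1* had 1445, 673 and 508 CPM, the largest difference among its named compartments for telogen over anagen (log2 -1.51, interval -1.55 to -1.46). Clusters 7 and 9, which make up these cells, gave -1.59 and -1.29.

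*ID4* had its own compartments. It was raised in clusters 13 (495, 399.7 and 212 CPM) and 16. Bulge-like cells were its highest named compartment in each library (268, 186 and 52.8), without reaching 2-fold everywhere. Suprabasal-like cells were above the whole-library level in anagen and catagen (145 and 123) and about level with it in telogen (37.7). IRS-like cells were low with 24.8, 11 and 4.42. The telogen level was below anagen in 23 of 24 clusters with at least 20 CPM, by 2-fold or more in 21. The exception was cluster 20, with 137, 166 and 175 CPM in 47, 59 and 108 cells. For catagen over anagen, 7 clusters were above and 17 below, with a median log2 ratio of -0.25.

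**Figure D4:**
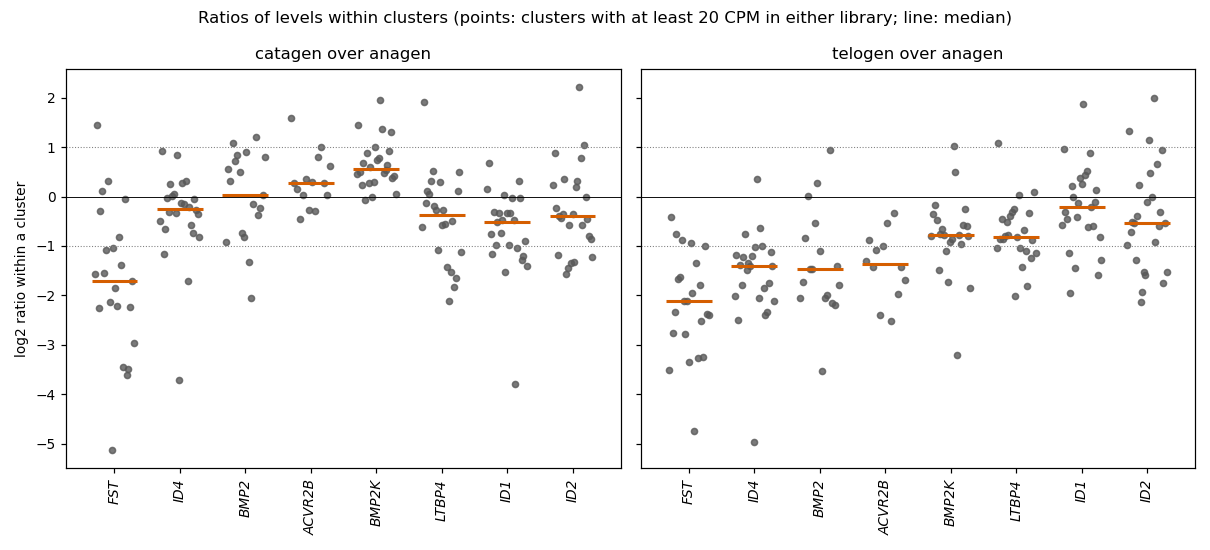
Log2 ratio of levels within clusters for 8 members, with catagen over anagen at the left and telogen over anagen at the right. Each point is a cluster with at least 20 CPM in either library and UMIs in both, and the orange line is the median over clusters. *FST* and *ID4* lie almost wholly below 0 for telogen over anagen, whereas *ID1* and *ID2* spread to both sides.

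The compartments can be described by counts. Of the 32 members with at least 5 CPM in a library, 9 (28.1%) were raised in at least 1 named compartment in all libraries, against 15.7% of 7807 genes. Cortex-like cells had 3 (*BMP4*, *ID1* and *ID2*; 3.55% of genes), bulge-like cells 2 (*LTBP1* and *LTBP4*; 1.79%), IRS-like cells 2 (*BMP4* and *ACVR2A*; 1.54%), basal epidermal-like cells 2 (*TGFBR2* and *TGFBR3*; 0.935%) and immune-like cells 1 (*TGFB1*; 1.45%). The mitotic-like, S phase-like, sebaceous-like, suprabasal-like and upper follicle-like cells had 0, where 3.86%, 1.15%, 1.77%, 0.730% and 1.01% of genes were raised. Of the unnamed clusters, 21 had 6 members (*INHBA*, *LTBP1*, *BMPR2*, *TGFBR2*, *TGFBR3* and *TGFB1I1*; 3.69% of genes), 16 had 4 (*BMP2*, *ID1*, *ID2* and *ID4*; 1.75%), 13 had 3 (*LTBP4*, *ID4* and *TGFB1I1*; 2.55%), 11 had 2 (*BMP4* and *SMAD5*; 3.41%), 0 had 1 (*FST*; 0.602%) and 22 had 1 (*INHBA*; 2.09%). Cluster 21 is the group with mesenchymal and endothelial markers, and of the 32 members only *BMPR2* was raised in it alone. *BMP6*, under the 5 CPM floor and so not counted, met the other conditions in clusters 21 and 22.

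**Figure D5:**
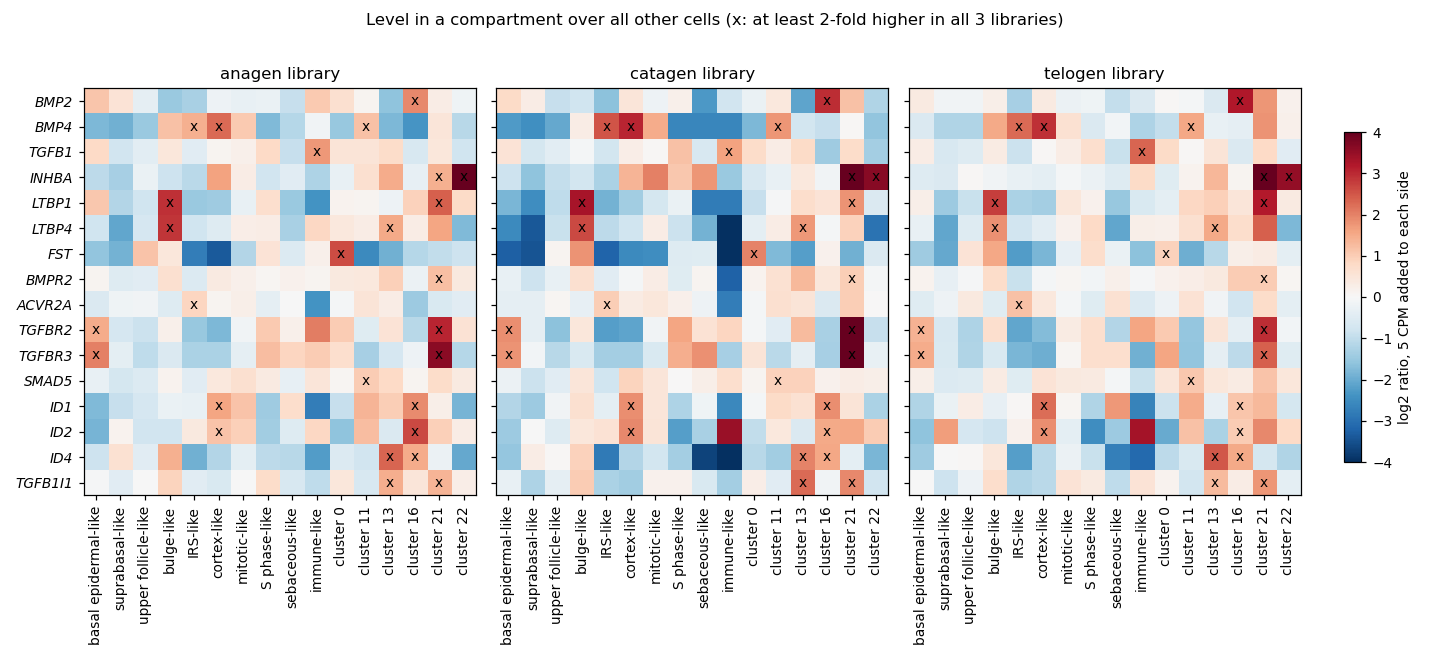
Log2 ratio of the level in a compartment over all other cells of the same library, with 5 CPM added to each side, for the 16 members raised in at least 1 compartment shown, in 10 named compartments and 6 unnamed clusters, in 3 panels by library. Colours end at a log2 ratio of 4 either way. Crosses mark a member raised in all 3 libraries; cluster 21 has 6 crosses, and basal epidermal-like cells have crosses at *TGFBR2* and *TGFBR3*.

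The members that match by letters alone behaved as follows. *BMP2K*, a kinase of endocytosis, had 40.6 CPM in anagen, 59.3 in catagen and 22.5 in telogen, and telogen was 2.63-fold below catagen. Telogen was lower in 24 of 24 clusters and 2-fold or more lower in 18, all from the same pair of libraries. With median-of-ratios scaling the log2 ratio of *BMP2K* was -0.90 in place of -1.40, and no longer 2-fold. *TGFB1I1* had 5.11, 7.92 and 8.16 CPM and was raised in clusters 13 (21.6, 51.0 and 25.5) and 21 (20.5, 44.0 and 39.1). *TGFBRAP1* had 11.7, 9.68 and 8.11.

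A list of 55 other genes of the pathway, from general knowledge, had 51 on the gene list and 19 or 20 tested in each comparison. In catagen over anagen, *ITGB8*, an integrin subunit that activates TGF-beta (log2 1.51), and *CD109*, a TGF-beta co-receptor (1.42), were called higher. *TGFBI* (-1.78), a classical TGF-beta target, was called lower, with 24.2, 7.06 and 33.5 CPM in anagen, catagen and telogen. In telogen over anagen, *MSX1* (-1.52) and *MSX2* (-1.69) were lower and 0 were higher. *MSX1* and *MSX2* are transcription factors and known BMP targets, and had 19.7, 10.6 and 6.84 CPM and 10.6, 7.20 and 3.29 CPM. In telogen over catagen, *TGFBI* was higher (2.25) and *ITGB8* (-1.77), *LEMD3* (-1.09), *FBN1* (-2.34) and *MSX2* (-1.13) were lower. In the compartments, *MSX1*, *MSX2* and *NEO1* were raised in cortex-like cells and in unnamed cluster 11, in both of which *BMP4* also was, and *TGFBI* in basal epidermal-like and S phase-like cells. Among unnamed clusters, *PMEPA1*, an inhibitor of TGF-beta signalling, was raised in 4 (11, 13, 21 and 22), *FBN1* and *SMURF2* in cluster 21 and *CD109* in cluster 16.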

How the data were processed

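Counts were deposited by the authors as Cell Ranger wrote them (UMIs for each gene in each barcode, not normalized); STAR alignment and cell calling preceded this. The submitters' processing notes name Cell Ranger 2.1.1, unlike the file headers. The genome build is not given in the sources used here. Members and lists were chosen with earlier results of these data known.

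Cells with at least 200 genes were kept. Libraries were integrated in Seurat 5.3.0 (R 4.3.3) with 2000 variable genes each, from which members and other pathway genes were removed, and clustered on 30 principal components with 20 neighbours at resolution 0.8, on 1 processor thread because cluster borders moved with the number of threads, and with them whether *FST* counted as raised in bulge-like cells. Markers (84 of 101 with a row) named a cluster where at least 3 were raised 1.5-fold and its class led the 10 leading genes; this rule was chosen after clusters were seen. Scrublet (scanpy 1.11.5) called 0 doublets in each library and so had not worked, and doublets were left in. UMIs were summed per library or compartment, and ratios carry exact 95% binomial intervals. UMIs count molecules, and with 1 library per stage no test across samples exists. The ratio scripts were tested on simulated data.

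Named were every member with at least 20 CPM in a library, past 2-fold or raised, the remaining members by their UMIs, and other pathway genes past 2-fold or raised. Alternatives were other cell filters, scalings, CPM minimums, doublet scores, means of log2 ratios over compartments, fixed cluster shares and clusterings. Some results are not reported here.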

Additional observations from a re-analysis of the deposited data

Results flagged for a closer look

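Compartments that moved at least 2-fold in opposite directions under the same pair of libraries were singled out, with intervals that exclude 0 on the log2 scale. With 1 library per stage, none of these differences was tested. For *ID2*, catagen over anagen was 2.22 in immune-like cells, against -1.45 in S phase-like and -1.34 in sebaceous-like cells. Telogen over anagen was 2.00 in immune-like cells, against -1.94 in S phase-like, -1.69 in mitotic-like and -1.59 in sebaceous-like cells. The immune-like levels were 229, 1064 and 912 CPM of *ID2* in 18, 17 and 49 cells. For telogen over catagen, *ID2* was 1.26 in suprabasal-like cells and -1.35 in bulge-like cells.

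For *LTBP4*, telogen over catagen was 1.51 in basal epidermal-like cells, against -1.26 in bulge-like and -1.05 in mitotic-like cells. For *FST*, telogen over catagen was 1.22 in mitotic-like cells, where catagen had 11.1 CPM from 39 UMIs, against -1.25 in bulge-like and -1.08 in sebaceous-like cells.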

How the results depend on the processing

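The 6 members lower in telogen than in anagen became 4 to 9 under the alternatives. For catagen over anagen, the count of 2 became 1 (*FST*) with cells of at least 2500 UMIs, with a minimum of 20 CPM and with median-of-ratios scaling. It became 4 with the mean of the log2 ratios of the named compartments. With the mean of each cell's CPM the log2 ratio of *FST* was -0.89 and it was not called. For telogen over catagen, the count of 12 became 6 with median-of-ratios scaling. Of 200 gene ratios under alternatives, from 20 called results, 200 kept their direction and 180 were still at least 2-fold after rounding. The 20 results were picked for a 2-fold difference in these same counts, and several alternatives change few cells. The kept directions are therefore no independent check. The count of members raised in a named compartment was 7 to 12 against 9, and 7 to 10 of the 10 pairs of member and compartment were shared with the main result. *FST* was raised in bulge-like cells at resolution 1.2, and *ID4* at resolution 0.4, with 15 principal components and with each library clustered alone. A compartment named for dermal sheath or muscle formed at resolution 0.4 and with 15 principal components. *INHBA* and *TGFB1I1* were raised in it in both settings, and *ID1* at resolution 0.4. Leaving out cluster 1, leaving out the cell with the most UMIs of a gene and holding cluster shares were chosen after seeing the data. No paired analysis was possible because each stage has 1 library. The lack of a second library per stage, the shallower catagen library and the few dermal cells limit all values.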

Other observations

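*BMP6*, under 5 CPM in every whole library, had its highest levels in the small clusters 22 (91.8 CPM in anagen, 123 in catagen and 49.3 in telogen) and 21 (34.9, 35.2 and 32.0). The cluster 21 levels rest on 17, 4 and 9 UMIs. In both clusters *BMP6* met the conditions for a raised member other than the 5 CPM floor of whole libraries. Upper follicle-like cells were highest among named compartments, with 4.81, 6.67 and 5.33 CPM. Their cluster 2 held 35.8%, 30.5% and 52.2% of all *BMP6* UMIs, against 25.8%, 36.7% and 11.5% in cluster 22. *BMP6* was picked out after its values had been seen. *BMP6* is a BMP ligand known from differentiating keratinocytes. Cluster 22 was also the cluster with *INHBA* at 217, 155 and 71.4 CPM, and held 190 cells in all. Its *BMP6* UMIs came from 15, 25 and 16 cells of the 3 libraries.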
